A study of Rattus norvegicus with 3 samples.

Results

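The insulin-like growth factor (IGF) family was followed in rat skeletal muscle through 8 genes, taken by name from the family, with earlier results of these data known: the ligands Igf1 and Igf2, the receptors Igf1r and Igf2r, and the binding proteins Igfbp3, Igfbp4, Igfbp5 and Igfbp6. They are 8 of the 15168 named genes on the array, and 9 of its 30367 probes measured them in 25 spots per array. Igf1 had 2 probes and each other member had 1.

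IGF-I and IGF-II are small secreted peptides that signal through the IGF-I receptor, a tyrosine kinase that activates the phosphatidylinositol 3-kinase and Akt pathway and promotes protein synthesis and myoblast growth. IGF-II also binds the IGF-II receptor, the cation-independent mannose 6-phosphate receptor, which takes it into lysosomes for breakdown. The binding proteins hold IGFs in the circulation and in the extracellular matrix, limit or prolong their access to the receptor, and are cut by proteases that free the ligand. In muscle, IGF-I is made by fibres and by other resident cells and is best known as a growth and repair signal.

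Total RNA from pieces of whole muscle of male rats of the strain given as Wistar Honnover, 12 weeks old, was hybridised to 1-colour Agilent arrays. The denervated soleus came 28 days after a segment of the left sciatic nerve was cut out at the gluteal level. The normal plantaris, a fast muscle, and the normal soleus, a slow muscle, came from rats that had no treatment and were sampled at the same time. Each of the 3 groups is 1 array, so no difference below has a replicate check and no test between groups was possible. The sources used here do not say how many animals gave each RNA sample. Since the samples are whole tissue, fewer cells of a type and less RNA per cell cannot be told apart.

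Signals are given as relative signal, the processed spot intensity divided by the 75th percentile of its own array, so that a value of 1 equals that percentile. Folds are differences in log2 relative signal, with an error that combines the scanner software's signal errors of both arrays and covers the measurement only. A fold of at least 2 (1 on the log2 scale) was counted, as a rule of size and not a test. Where the levels of a gene are put in order, neighbouring arrays are called apart only when the gap passes 2 of these errors.

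The array's 75th percentile was 1217 intensity units for denervated soleus, 744 for plantaris and 903 for normal soleus, and the share of probes well above background was 67.0% for denervated soleus, 65.3% for plantaris and 64.2% for normal soleus. The muscle labels were borne out by marker genes. In plantaris over normal soleus, 5 of 5 slow-fibre genes were at least 2-fold lower and 6 of 6 fast-fibre genes at least 2-fold higher. Of genes known to respond to denervation, 6 of 6 were at least 2-fold higher in denervated than in normal soleus. There 5 of 5 slow-fibre genes were also lower and 4 of 6 fast-fibre genes higher. In plantaris over normal soleus 4 of 6 denervation genes were lower and 1 higher. Over all genes tested, 8.73% were higher and 13.4% lower in denervated over normal soleus. The shares were 5.71% and 6.11% in plantaris over normal soleus. The plantaris and normal soleus arrays shared a slide and a scan, and the denervated array was on another slide, so slide and denervation cannot be told apart. Both comparisons use the same normal soleus array. Over all genes the median log2 fold was 0.03 for denervated over normal soleus and 0.02 for plantaris over normal soleus.

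The largest folds of the members in denervated over normal soleus were those of 3 binding proteins. Igfbp3, Igfbp4 and Igfbp5 were at least 2-fold higher in denervated than in normal soleus, as were 8.73% of the 11318 genes tested. At least 2-fold lower were 0 of 8 members, as were 13.4% of those genes. The median log2 fold of the 8 members was 0.66, and 7 of 8 were above 0, against 51.6% of all genes with a fold. Of the 7, Igf2 and Igf1r lay within 2 errors of 0. In plantaris over normal soleus 1 of 8 members, Igf2, was at least 2-fold lower, against 6.11% of 11015 genes, and 0 of 8 were at least 2-fold higher, against 5.71%. The median of the members there was -0.24. All 8 members were well above background on all 3 arrays.

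The 3 binding protein genes that were at least 2-fold higher lie on different chromosomes, and the 250 bases before their annotated starts are shown because these genes carry the denervated soleus result. The sequences are RefSeq's on the GRCr8 build, read 5′ to 3′ on the gene's own strand: Igfbp3 at chr14:86277945-86278194 on the minus strand, Igfbp4 at chr10:84491221-84491470 on the plus strand and Igfbp5 at chr9:81914188-81914437 on the minus strand. Capitals mark the E-box letters CANNTG, which myogenic factors such as myogenin are known to bind, and the TATA box letters TATAAA.
Igfbp3: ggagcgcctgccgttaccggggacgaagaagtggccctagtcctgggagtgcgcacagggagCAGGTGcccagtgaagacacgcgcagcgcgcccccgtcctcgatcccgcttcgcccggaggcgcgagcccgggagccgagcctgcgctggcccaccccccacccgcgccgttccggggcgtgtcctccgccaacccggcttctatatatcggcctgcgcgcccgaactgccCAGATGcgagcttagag
Igfbp4: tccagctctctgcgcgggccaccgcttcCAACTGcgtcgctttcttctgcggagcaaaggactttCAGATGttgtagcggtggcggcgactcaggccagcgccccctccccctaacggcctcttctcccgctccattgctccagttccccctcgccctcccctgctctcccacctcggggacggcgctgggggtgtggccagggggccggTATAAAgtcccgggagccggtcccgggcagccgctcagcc
Igfbp5: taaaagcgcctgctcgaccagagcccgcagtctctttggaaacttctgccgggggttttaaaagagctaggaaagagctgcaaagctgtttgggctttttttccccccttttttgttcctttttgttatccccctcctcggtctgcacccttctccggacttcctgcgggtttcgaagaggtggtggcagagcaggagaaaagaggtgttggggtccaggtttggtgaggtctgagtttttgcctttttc
Both strands were searched, CANNTG being its own reverse complement, and no matches of different motifs overlapped in these windows. The Igfbp3 window holds 2 E-box matches, beginning 188 and 17 bases before the start. The Igfbp4 window holds 2 E-box matches, beginning 222 and 185 bases before the start, and 1 TATA box match, 40 bases before it. The Igfbp5 window holds neither. Of 33469 RefSeq windows of the same 250 bases, 65.5% hold an E-box match and 12.9% a TATA box match. None of the 3 windows holds the FoxO letters GTAAACA, which 3.21% of all windows hold, or the GC box letters GGGCGG, which 30.5% hold. The share of G and C was 71.6% for Igfbp3, 68.8% for Igfbp4 and 51.6% for Igfbp5, against a median of 51.2% over all windows. These matches describe the letters and say nothing of binding.

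**Figure D1:**
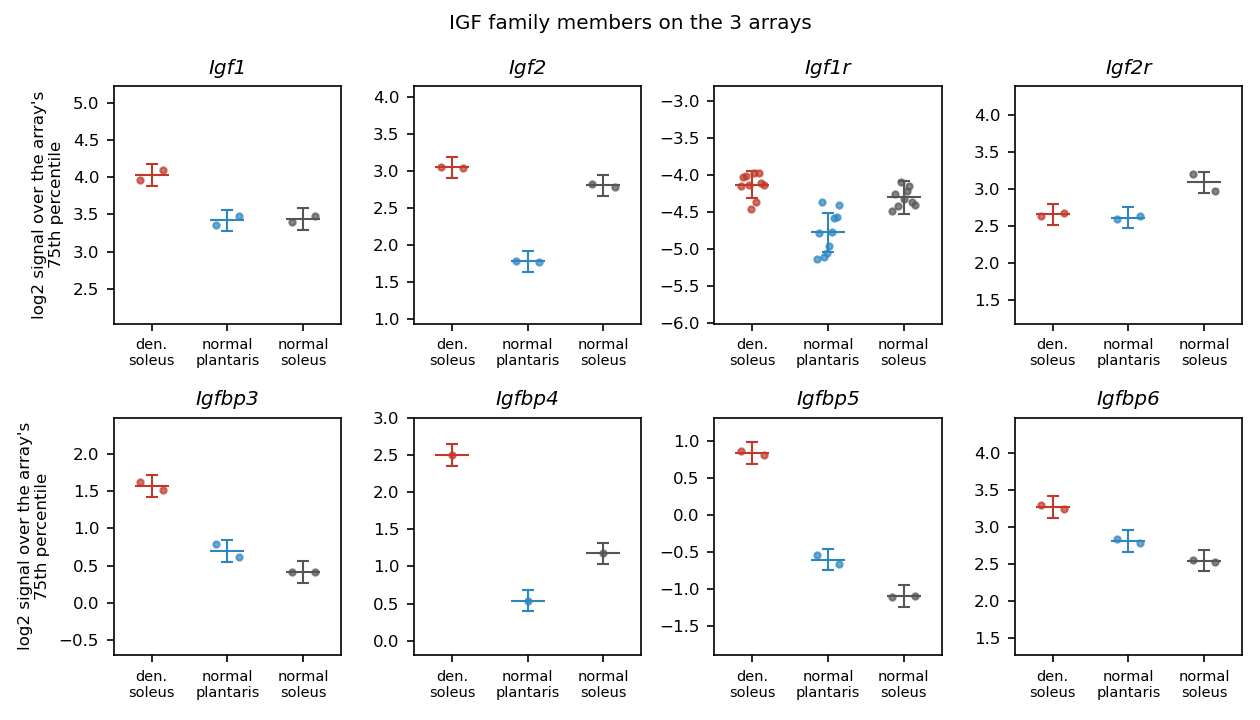
Relative signal (processed intensity over the array's 75th percentile, log scale) of the 8 IGF family genes on the denervated soleus, normal plantaris and normal soleus arrays, 1 array each. Igfbp5 was at 1.78 in denervated soleus, 0.658 in plantaris and 0.469 in normal soleus, and Igf2r is the member whose highest value was in normal soleus.

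Among the ligands, Igf1 was higher in denervated soleus by less than 2-fold and Igf2 stood apart in plantaris. Igf1, the IGF-I gene, had a relative signal of 16.4 in denervated soleus, 10.7 in plantaris and 10.8 in normal soleus. Its second probe gave 7.97 in denervated soleus, 4.41 in plantaris and 4.83 in normal soleus. By both probes denervated soleus was the highest array and the normal muscles lay close together. The log2 fold of denervated over normal soleus was 0.60 ± 0.20 by the brighter probe and 0.72 ± 0.20 by the other, or 1.51-fold and 1.65-fold. For plantaris over normal soleus the log2 folds were -0.02 ± 0.20 and -0.13 ± 0.20, within 2 errors of 0, and the brighter probe's sign turned, to 0.05, when arrays were centred on their medians.

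Igf2, the IGF-II gene, a fetal growth factor and a product of differentiating myoblasts, had a relative signal of 8.27 in denervated soleus, 3.44 in plantaris and 6.98 in normal soleus. The repeat spots of the probe lay between 8.22 and 8.32 in denervated soleus, between 3.43 and 3.44 in plantaris and between 6.90 and 7.07 in normal soleus. The plantaris spots therefore lay below all spots of both soleus arrays. Its log2 fold of plantaris over normal soleus was -1.02 ± 0.20, a level 0.492 times that of normal soleus, and 655 of 10977 genes had a lower fold. That fold is at the edge of the 2-fold rule, and it was -0.96 when arrays were centred on their medians. Denervated over normal soleus was 0.24 ± 0.20, a gap that did not pass 2 errors.

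Next to Igf2 on rat chromosome 1, with no protein-coding gene between them, lies H19, a long noncoding RNA imprinted on the opposite parental allele. H19 did not follow Igf2 in plantaris: its relative signal was 241 in denervated soleus, 282 in plantaris and 116 in normal soleus. Its log2 folds were 1.06 ± 0.20 for denervated over normal soleus and 1.28 ± 0.20 for plantaris over normal soleus, the last of which was 0.76 after quantile normalization. In plantaris over normal soleus Igf2 and H19 thus differed in sign under each of the 9 processing alternatives, some of which could not move Igf2.

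Neither receptor was 2-fold apart in either comparison. Igf1r, the tyrosine kinase receptor for IGF-I and IGF-II, gave a faint signal of 0.0570 in denervated soleus, 0.0367 in plantaris and 0.0508 in normal soleus. Its 10 repeat spots ranged from 0.0455 to 0.0639 in denervated soleus, from 0.0287 to 0.0488 in plantaris and, over 9 spots used, from 0.0445 to 0.0588 in normal soleus, so all 3 arrays overlapped. The log2 folds were 0.17 ± 0.29 for denervated over normal soleus and -0.47 ± 0.34 for plantaris over normal soleus, both under 2 errors. With a normexp background correction the first became -0.17 and the second -0.07, so no direction is given for this gene.

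Igf2r, the scavenging receptor for IGF-II, was at 6.30 in denervated soleus, 6.11 in plantaris and 8.49 in normal soleus. It is the only member whose highest value was in normal soleus, and its denervated soleus and plantaris values did not differ beyond 2 errors. The log2 folds were -0.43 ± 0.20 for denervated over normal soleus and -0.47 ± 0.20 for plantaris over normal soleus. Its repeat spots in normal soleus spread from 7.83 to 9.20, and the denervated fold was -0.19 on the authors' value table and -0.22 after quantile normalization, both under 2 errors.

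All 4 binding protein genes were higher in denervated soleus than in either normal muscle, with log2 folds over normal soleus from 0.72 to 1.93. In plantaris over normal soleus the same genes ran from -0.64 to 0.49, with 3 of 4 above 0.

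**Figure D2:**
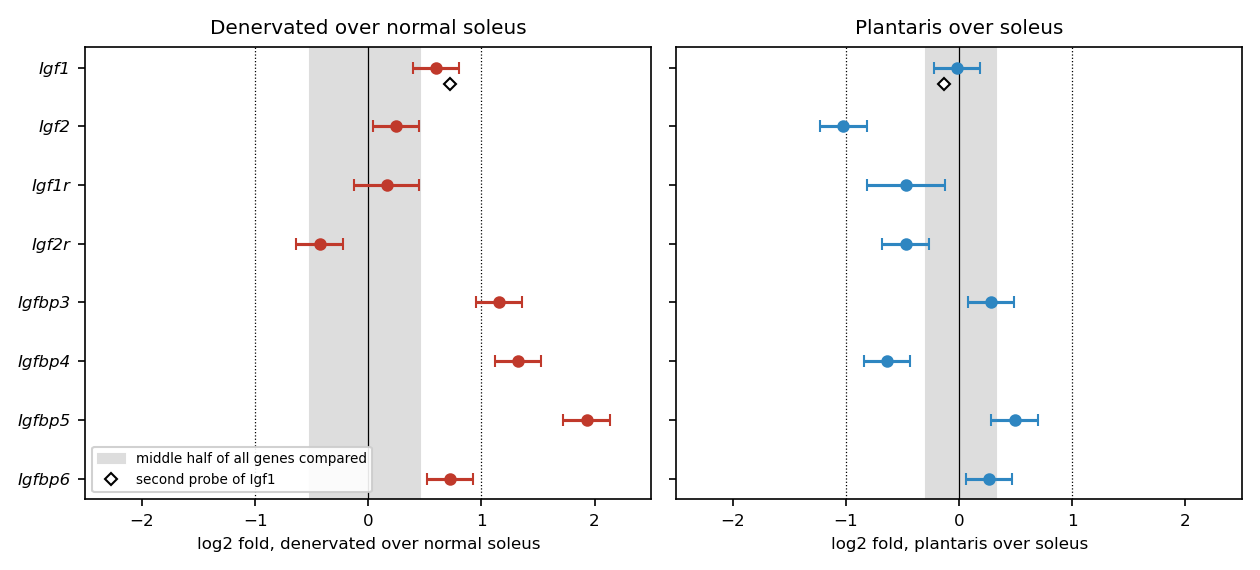
Log2 fold of each member in denervated over normal soleus and in plantaris over normal soleus, with the measurement error as a bar and dotted lines at 2-fold. Igfbp3, Igfbp4 and Igfbp5 lie beyond the line on the left panel, and Igf2 lies at the line on the right panel at -1.02.

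Igfbp5, a binding protein that attaches to extracellular matrix and is known from the differentiation of myoblasts, had the largest fold of the 8 genes in denervated over normal soleus. Its relative signal was 1.78 in denervated soleus, 0.658 in plantaris and 0.469 in normal soleus. The repeat spots lay between 1.75 and 1.82 in denervated soleus, between 0.633 and 0.685 in plantaris and between 0.466 and 0.471 in normal soleus, without overlap. Denervated over normal soleus was 1.93 ± 0.20 on the log2 scale, or 3.81-fold, higher than the fold of 97.9% of 11231 genes. Plantaris over normal soleus was 0.49 ± 0.21. Denervated soleus was apart from both normal muscles by more than 2 errors. The gap between plantaris and normal soleus passed 2 errors as reported, but was 0.38 on the authors' value table and 0.41 with normexp, where it did not.

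Igfbp4, a binding protein known mainly as an inhibitor of IGF action and as the target of the protease PAPP-A, had a relative signal of 5.67 in denervated soleus, 1.45 in plantaris and 2.26 in normal soleus, each from a single spot. Its order differs from that of Igfbp5 in that plantaris was lowest. Denervated over normal soleus was 1.33 ± 0.20, or 2.51-fold, and plantaris over normal soleus was -0.64 ± 0.20. Set against plantaris, denervated soleus was higher by 1.96 ± 0.20 on the log2 scale, where Igfbp5 was higher by 1.44 ± 0.20.

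Igfbp3, the main carrier of IGFs in blood, was at 2.97 in denervated soleus, 1.62 in plantaris and 1.33 in normal soleus. The repeat spots lay between 2.86 and 3.08 in denervated soleus, between 1.53 and 1.72 in plantaris and between 1.33 and 1.34 in normal soleus. Denervated over normal soleus was 1.16 ± 0.20, or 2.23-fold. Plantaris over normal soleus was 0.28 ± 0.20, within 2 errors.

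Igfbp6, which binds IGF-II in preference to IGF-I, was at 9.65 in denervated soleus, 7.02 in plantaris and 5.84 in normal soleus. Its repeat spots did not overlap between arrays. The log2 folds were 0.72 ± 0.20 for denervated over normal soleus, below the 2-fold rule, and 0.27 ± 0.20 for plantaris over normal soleus, within 2 errors. After quantile normalization the denervated fold was 1.01, the only alternative that put Igfbp6 past 2-fold.

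Of the 9 processing alternatives, all left Igfbp3, Igfbp4 and Igfbp5 at least 2-fold higher in denervated than in normal soleus. Those that changed only the background filter, the outlier flags or the averaging over probes could not move the folds of these genes. Their log2 folds ranged from 1.01 to 1.40 for Igfbp3, from 1.30 to 1.57 for Igfbp4 and from 1.74 to 2.17 for Igfbp5. Igf1, by its brighter probe or the mean of its probes, ranged from 0.58 to 0.92 and did not reach 2-fold. Its second probe was not run alone under the alternatives.

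**Figure D3:**
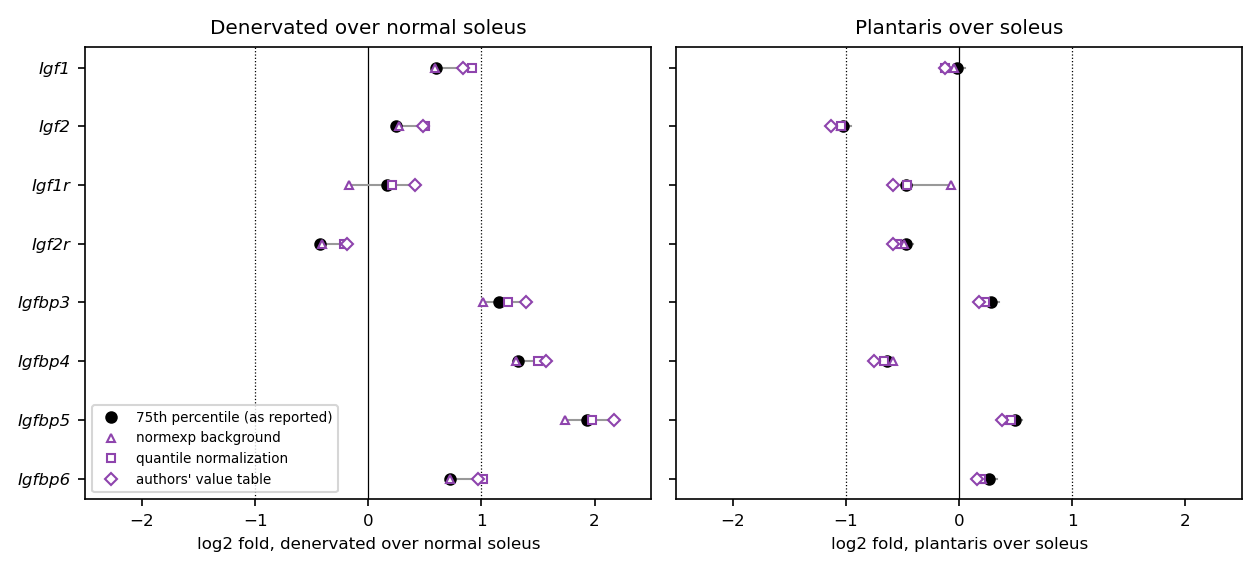
Log2 fold of each member as reported (filled circles) and after a normexp background correction, quantile normalization or on the authors' value table, with grey lines spanning all 9 alternatives. Igf1r is the member that crosses 0 in denervated over normal soleus, from 0.17 as reported to -0.17 with normexp, and Igfbp3, Igfbp4 and Igfbp5 stay beyond 2-fold.

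Among the other family genes on the array, Igfbp1 was lower in denervated than in normal soleus and Igfbp2 gave only bounds. Igfbp1, known mainly from liver and lying next to Igfbp3 with no protein-coding gene between, was at 0.15 in denervated soleus, 0.671 in plantaris and 0.635 in normal soleus. Its log2 fold of denervated over normal soleus was -2.08 ± 0.21, the opposite sign to its neighbour Igfbp3, and plantaris over normal soleus was 0.08 ± 0.20. Igfbp2, which lies next to Igfbp5 in the same way, was not well above background in normal soleus, so only bounds could be given: log2 folds of at least 1.45 for denervated and 1.68 for plantaris over normal soleus, from relative signals of 0.034 and 0.040. The error of each fold was 1.48, and with normexp those folds were 0.03 for denervated and 0.59 for plantaris. Igfbp7, a distant relative with weak IGF binding, had log2 folds of -0.27 ± 0.20 for denervated and -0.36 ± 0.20 for plantaris over normal soleus.

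Of 10 other family genes, 6 were tested in denervated over normal soleus. Of these, 1 was at least 2-fold higher (Igfbp2, a bound) and 4 were at least 2-fold lower, against 8.73% and 13.4% of all genes tested. Their median log2 fold was -1.33, against 0.03 over all genes. With normexp that median was -0.73. Besides Igfbp1, the lower genes were Igfals, the acid-labile subunit of the circulating Igfbp3 complex, at -1.64 ± 0.77, Insr, the insulin receptor, at -1.04 ± 0.22 by its brighter probe and -0.29 by the other, and Insrr, an orphan relative of it, at a bound of -1.62. Igfals and Insrr were faint, at -0.64 and -0.82 with normexp, and Insr was at -0.90 with normexp. Of those with a plantaris fold, 7 were tested against normal soleus, with a median of 0.17. Among them 1 was at least 2-fold higher (Igfbp2, a bound) and 1 lower (Insrr, a bound of -1.27), against 5.71% and 6.11% of all genes tested.

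Proteases that cut IGF-binding proteins, and their inhibitors, had 13 genes tested in denervated over normal soleus. Of these, 3 were at least 2-fold higher and 1 lower, against 8.73% and 13.4% of all genes tested. The median log2 fold of the list was 0.63. With normexp that median was 0.26. Mmp2, a gelatinase that cuts Igfbp3 and Igfbp5, was at 24.7 in denervated soleus, 8.89 in plantaris and 10.4 in normal soleus, a log2 fold of denervated over normal soleus of 1.25 ± 0.20. Timp2, an inhibitor of matrix metalloproteinases that also takes part in the activation of Mmp2, had a fold of 1.15 ± 0.20. The faint Mmp3 and Mmp7 gave bounds of 1.85 and -2.16, which were 0.26 and -0.97 with normexp. In plantaris over normal soleus the median was -0.22, with Stc2, an inhibitor of PAPP-A, at a bound of 1.73, Mmp7 at a bound of -1.78 and Timp1 at -1.82 ± 0.20. With normexp Stc2 was at 0.56 and Mmp7 at -0.50.

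Signalling genes close to the IGF-I receptor had a median log2 fold of -0.00 over 20 genes tested in denervated over normal soleus. At least 2-fold higher were 3 of the 20, and 1 was lower, against 8.73% and 13.4% of all genes tested. Pik3r1, the p85 alpha regulatory subunit of phosphatidylinositol 3-kinase, was at 1.79 in denervated soleus, 0.297 in plantaris and 0.317 in normal soleus, a log2 fold of denervated over normal soleus of 2.49 ± 0.21. Nedd4, a ubiquitin ligase known to act on this receptor, had a fold of 1.29 ± 0.20, and Pik3cb a bound of 1.19 that was 0.04 with normexp. Grb14, an adaptor that inhibits insulin receptor signalling, was at 0.951 in denervated soleus, 5.90 in plantaris and 6.82 in normal soleus, a fold of -2.84 ± 0.20. The plantaris over normal soleus median was 0.29, with Sos2 at 1.02 ± 0.20 (0.79 by its other probe), Pik3cd at a bound of 1.29 and Pik3r3 at -1.28 ± 0.31. With normexp Pik3cd was at 0.48 and Pik3r3 at -0.44.

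In the growth hormone axis, which drives Igf1 transcription through STAT5, 2 of 7 genes tested were at least 2-fold higher in denervated over normal soleus. Lower were 0 of 7, and the median was 0.65. The shares over all genes tested were 8.73% higher and 13.4% lower. The higher genes were Socs2 at 1.19 ± 0.22 and Cish at 1.49 ± 0.21, both feedback inhibitors that STAT5 induces. The other Cish probe gave 0.10, and Socs2 was 0.71 with normexp. Plantaris over normal soleus had 0 of 7 genes 2-fold apart, against 5.71% of all genes higher and 6.11% lower, and a median of 0.60.

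Besides H19, the imprinted genes held Dlk1 at a bound of 1.09 in denervated over normal soleus. Dlk1 was faint, at 0.027 in denervated soleus, and the error of its fold was 0.82. Kcnq1 was at -1.62 ± 0.21 in plantaris over normal soleus, and its other probe gave 0.08. The medians over imprinted genes were 0.68 for 9 genes in denervated and 0.08 for 8 genes in plantaris over normal soleus, the last of which was -0.08 after quantile normalization. Along the mannose 6-phosphate route to the lysosome, which Igf2r serves, 1 of 13 genes was at least 2-fold higher in denervated over normal soleus, against 8.73% of all genes tested. It was Gusb, a lysosomal glucuronidase, at 1.08 ± 0.21 (0.72 with normexp), and Nagpa, the uncovering enzyme of the tag, was next at 0.67 ± 0.20. The medians of that list were 0.40 in denervated and 0.04 in plantaris over normal soleus.

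Matrix and intracellular partners of the binding proteins differed in both directions, with a median of 0.32 over 10 genes in denervated over normal soleus (0.10 with normexp) and of -0.15 over 9 genes in plantaris over normal soleus. Tnc, the matrix glycoprotein tenascin C, had log2 folds of 1.52 ± 0.32 for denervated and 1.73 ± 0.33 for plantaris over normal soleus from faint signals. With normexp they were 0.54 for denervated and 0.87 for plantaris. Fhl2, a LIM-domain protein known to bind Igfbp5, was at 0.185 in denervated soleus, 0.045 in plantaris and 1.1 in normal soleus, log2 folds of -2.57 ± 0.21 for denervated and -4.63 ± 0.29 for plantaris over normal soleus, the last of which was -2.99 with normexp. Spp1, osteopontin, was at -2.65 ± 0.26 in plantaris over normal soleus, and at -1.51 with normexp.

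**Figure D4:**
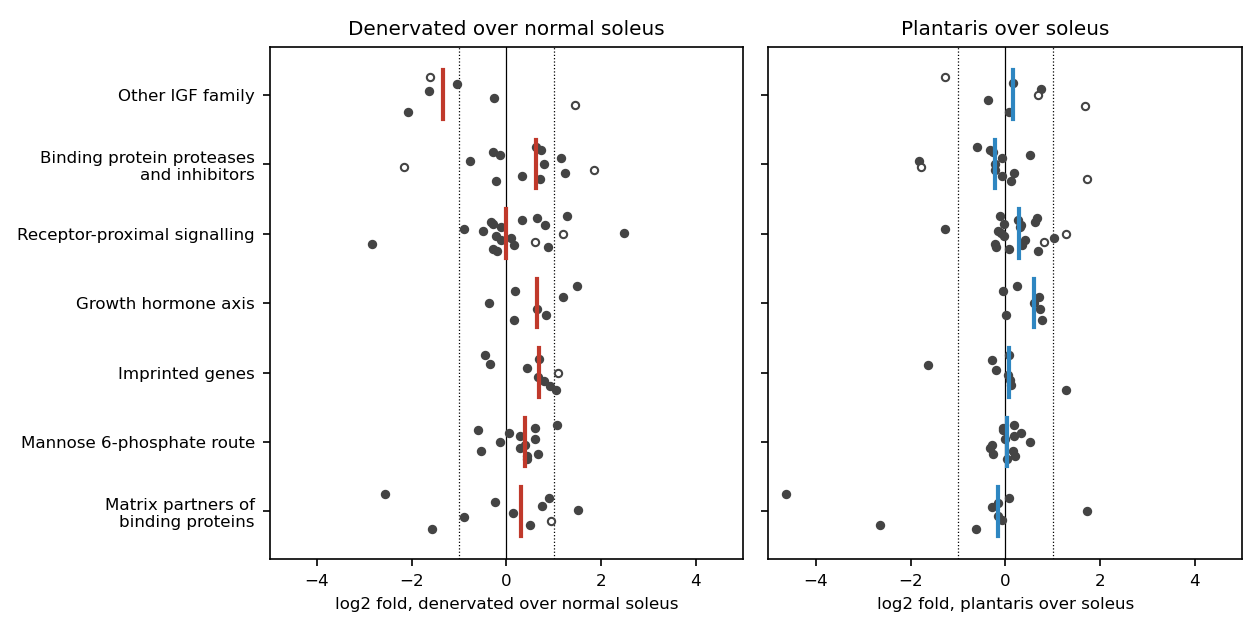
Log2 fold of each gene in 7 lists around the IGF family, for denervated and for plantaris over normal soleus, with vertical bars at the list medians, open circles for bounds and dotted lines at 2-fold. In denervated over normal soleus the other family genes have the lowest median, -1.33, and the proteases and growth hormone axis lie at 0.63 and 0.65. With normexp the medians of the other family genes and the proteases were -0.73 and 0.26.

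By the size of the pair of log2 folds, measured as Euclidean distance over 9847 genes well above background on all 3 arrays, the genes nearest to Igfbp5 were Evc at 1.95 and 0.41, Cpxm2 at 2.01 and 0.53 and Chrnb1 at 1.88 and 0.39, each pair giving denervated and then plantaris over normal soleus. Chrnb1 encodes the beta subunit of the muscle acetylcholine receptor. Within a distance of 0.2 there were 8 genes. Igfbp4 was nearest to RT1-Db1, an MHC class II chain, to Gzmm and to Niban2, with 15 genes within 0.2. Igfbp3 was nearest to Gprc5c, to Gpc1, a heparan sulfate proteoglycan, and to Cited1, with 82 genes within 0.2. Igf2 was nearest to Blvrb, Ccl7 and Rprml, with 46 genes within 0.2. Over all genes the median error of a fold was 0.21 in each comparison. The distances of the named genes lay below that, so their order is within measurement error.

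Markers of cells other than muscle fibres also differed between these arrays. The shares of all genes tested to set beside their counts were 8.73% higher and 13.4% lower in denervated over normal soleus. In plantaris over normal soleus they were 5.71% higher and 6.11% lower. For fibroblasts and tendon the summed relative signal of 10 markers was 360 in denervated soleus, 346 in plantaris and 169 in normal soleus, with 2 of 10 at least 2-fold higher in denervated and 3 of 10 in plantaris over normal soleus. The collagen genes Col1a1 and Col1a2 carry most of that sum, and without them it was 160 in denervated soleus, 82.5 in plantaris and 59.7 in normal soleus. All 8 remaining markers had a log2 fold above 0 in denervated over normal soleus, with a median of 0.88, and 4 of 8 in plantaris over normal soleus, with a median of -0.02. For adipocytes the sum of 8 markers was 77.4 in denervated soleus, 14.1 in plantaris and 23.9 in normal soleus. Cfd alone was at 49.4 in denervated soleus. Cidea was at 0.807 in plantaris and 8.08 in normal soleus. In plantaris over normal soleus, 1 of 7 markers tested, Cidea, was at least 2-fold lower and 0 were higher. Of the 7 tested, 5 were at least 2-fold higher in denervated over normal soleus, and Cidea at 0.04 and Fabp4 at 0.51 were not. The median log2 fold was 2.40, which was 1.56 with normexp. Lep, a defining adipocyte gene, was not well above background on any array. In denervated over normal soleus, macrophage markers had a median of 0.26 with 0 of 11 at least 2-fold apart, and sums of 55.1 in denervated soleus, 35.6 in plantaris and 52.1 in normal soleus. Endothelial markers had a median of -0.49 with 3 of 8 lower, and sums of 7.66 in denervated soleus, 11.1 in plantaris and 13.8 in normal soleus. Of the smooth muscle and pericyte genes, 2 of 8 were lower and the median was -0.61. They include Des, desmin, which muscle fibres also express, and without it 1 of 7, Cnn1, was lower, as a bound, the median was -0.56, and the sums were 7.57 in denervated soleus, 8.25 in plantaris and 10.6 in normal soleus. Satellite cell markers had a median of 0.51 over the 3 of 5 that were tested, Pax7 and Megf10 not being well above background on any array. Schwann cell markers had no settled direction, with 3 of 8 higher and 3 of 8 lower, a median of 0.16 that was -0.51 with normexp, and Mbp probes at -2.11 and 1.36. Blood cell markers had a median of 0.46 over 3 genes. The part of these cells in the values of Igf1 and of the binding proteins was not tested.

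**Figure D5:**
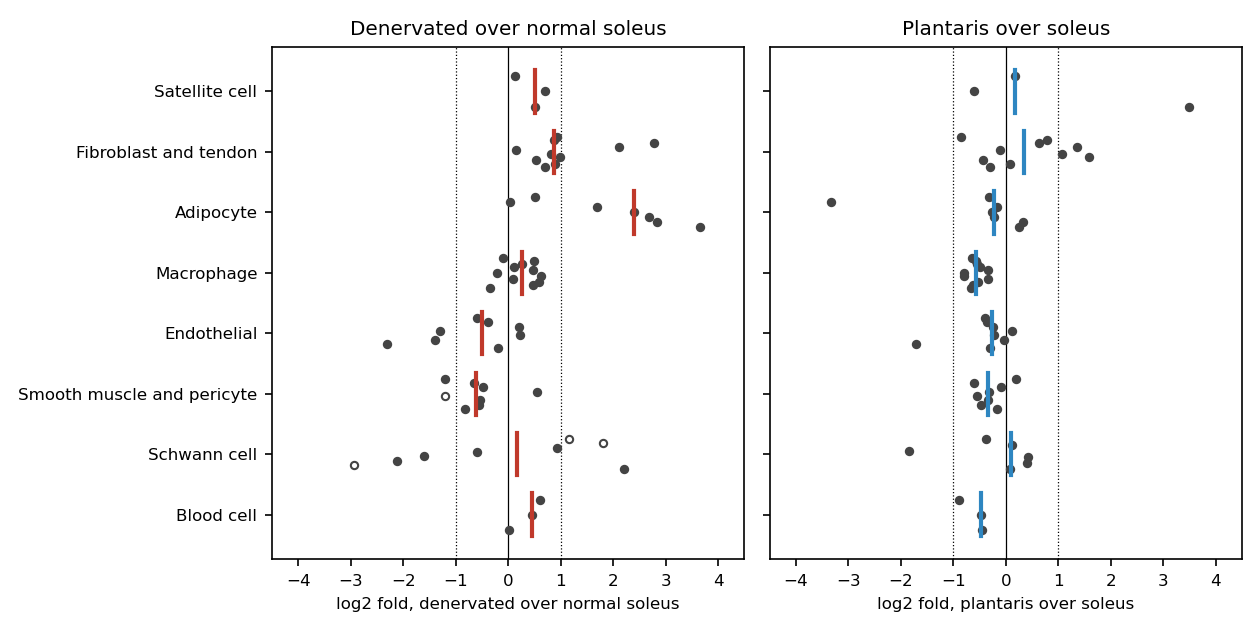
Log2 fold of markers of 8 cell types other than muscle fibres (Des, among the smooth muscle genes, is also a fibre gene), for denervated and for plantaris over normal soleus, with vertical bars at the medians, open circles for bounds and dotted lines at 2-fold. Adipocyte markers have the highest median in denervated over normal soleus, 2.40, and fibroblast and tendon markers follow at 0.88.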

How the data were processed

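The 3 groups of 1 array each were formed by the source name in the labels. Per the file headers, the authors scanned 1-colour (Cy3) Agilent rat arrays with Feature Extraction 10.10.1.1 and deposited for each spot a processed intensity (background-subtracted), a median intensity and other flags for background, saturation and outliers. Their value table holds the processed intensity of each array multiplied by 1 factor, 1.41 for denervated soleus, 1.80 for plantaris and 1.60 for normal soleus, with column medians of 243.3, 180.5 and 203.7. It is on a linear scale with no centring of genes, and the sources used here do not say how the factors were set.

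Control spots and outlier-flagged spots (569 of 58717 for denervated soleus, 467 for plantaris and 487 for normal soleus) were left out. The log2 processed intensity was centred on each array's 75th percentile, repeat spots were averaged, and the brightest probe stood for a gene. A probe was well above background where at least 50% of its spots were. A gene above background on 1 of both arrays has only a bound, taken against the higher of the dim array's lowest signal well above background and the dim probe's own signal. Genes named beside the members were every gene of 7 lists that was at least 2-fold apart, or the 2 with the largest fold, and the 3 genes nearest to each member at least 2-fold apart. Of these, 1 list gene is not reported here. The members and lists were chosen with earlier results of these data known. Alternatives used limma 3.58.1 in R 4.3.3 and the settings named in the closing section. Another alternative took the 75th percentile only over probes well above background on all arrays. Calculations ran in Python 3.11.15 and were tested on simulated data. Promoter windows were taken from RefSeq (GRCr8), where 8 of 8 members matched by symbol. The number of arrays limits the precision.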

Additional observations from a re-analysis of the deposited data

How the results depend on the processing

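No paired analysis was possible because each group holds 1 array, and no replicate could be left out. Of 144 member folds over 9 alternatives, 131 moved by less than their measurement error and 13 by more, and 0 reversed a fold of at least 2. Many of the 131 were fixed in advance. The background filters could move no member, the outlier flags only Igf1r and the averaging over probes only Igf1. The median of the members in denervated over normal soleus was 0.66 as reported, 0.90 on the authors' value table and 0.96 after quantile normalization. At 1.5-fold in place of 2-fold, 5 members were higher in denervated over normal soleus, against 19.8% of all genes tested. At that fold 2 members were lower in plantaris over normal soleus, against 12.7%. With arrays centred on their medians, 0 members were at least 2-fold lower in plantaris over normal soleus, against 5.62% of all genes tested. Over all genes, denervated over normal soleus had 988 higher and 1518 lower as reported (39.4% of these higher), 367 and 1001 with normexp (26.8%) and 1568 and 1107 on the authors' value table (58.6%), which moves the median of all genes to 0.27. Plantaris over normal soleus had 629 and 673, against 309 and 282 with normexp, 433 lower where both arrays had to be above background, and 1430 and 1395 at 1.5-fold, where denervated had 2237 and 2571. The cause was not tested. Normexp on the mean spot signal was not run, since the columns used here hold only the median spot signal, and the run on that signal was chosen after seeing the data, as were the marker sums without Col1a1 and Col1a2 and without Des. Faint probes such as that of Igf1r move most with the background correction.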

Other observations

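Probes of the same gene did not always give the same value. For Cish the brighter probe gave log2 folds of 1.49 in denervated and 0.24 in plantaris over normal soleus, and the other probe gave 0.10 and 0.52. In the same order, the brighter Kcnq1 probe gave -0.34 and -1.62, and the other gave -2.51 and 0.08. The Igf1 probes lay within their errors of each other in both comparisons.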
